A study of Homo sapiens with 6 samples.

Results

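The small nucleolar RNA host genes described here are SNHG1, SNHG3, SNHG5, SNHG6, SNHG7, SNHG8, SNHG12 and GAS5, long noncoding genes chosen by name from the table of all genes. All 8 were found among its 18236 genes. Their level was compared between 2 lines of HCT116, a colorectal cancer cell line, each with 1 remaining allele of CTNNB1, which encodes β-catenin. The wild-type line (HCT116-CTNNB1 WT/-) had its mutant allele disrupted, and the mutant line (HCT116-CTNNB1-/Δ45) had its wild-type allele disrupted and kept the allele with the stabilizing deletion. Both lines grew untreated in McCoy-5A medium with serum, and 3 replicates of each were sequenced. Nothing in the labels says that the replicates were separate cultures, and each genotype is represented by a single line.

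A host gene of this kind is known above all for what lies in its introns. An intron can hold a small nucleolar RNA (snoRNA), which is trimmed out of the excised intron, packed with proteins and sent to the nucleolus. Box C/D snoRNAs (names starting with SNORD) guide 2′-O-methylation and box H/ACA snoRNAs (SNORA) guide pseudouridylation, mostly of ribosomal RNA. The spliced exons have only short reading frames, so translation stops early and the RNA of many hosts is destroyed by nonsense-mediated decay. Many host genes begin with a pyrimidine tract, the 5′ terminal oligopyrimidine (TOP) motif, which they share with the genes of ribosomal proteins and translation factors.

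The sequence around the annotated start is shown for the 7 genes with a RefSeq promoter on GRCh38.p14, since a TOP motif would lie there. Each line holds 20 bases before the start and 30 bases from it, read along the gene, and capitals mark the run nearest the start that consists of a C and at least 4 further pyrimidines, taken from its earliest C within 5 bases of the start.
SNHG5: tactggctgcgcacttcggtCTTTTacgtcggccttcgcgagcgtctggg
SNHG7: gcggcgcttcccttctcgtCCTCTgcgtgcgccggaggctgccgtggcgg
SNHG8: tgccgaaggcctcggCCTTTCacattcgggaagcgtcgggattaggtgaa
SNHG12: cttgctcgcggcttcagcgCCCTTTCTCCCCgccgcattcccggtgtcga
SNHG1: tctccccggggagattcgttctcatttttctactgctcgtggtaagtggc
SNHG3: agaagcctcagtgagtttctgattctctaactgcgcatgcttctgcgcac
GAS5: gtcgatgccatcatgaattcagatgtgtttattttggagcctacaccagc
These windows are chr6:85678704-85678753 (minus strand) for SNHG5, chr9:136728155-136728204 (minus) for SNHG7, chr4:118278742-118278791 (plus) for SNHG8 and chr1:28581844-28581893 (minus) for SNHG12. Those of SNHG1, SNHG3 and GAS5 are chr11:62855856-62855905 (minus), chr1:28505923-28505972 (plus) and chr1:173869016-173869065 (minus). The run was found in 4 of 7 host genes, in 21.1% of 35097 promoters and in 81% of 63 promoters of ribosomal protein genes. The marked run had 12 bases in SNHG12, 6 in SNHG8 and 5 in SNHG5 and SNHG7. GAS5 has several annotated starts and a window at a single start leaves the others unread. In the 300 bases around the start, on both strands, the E-box CACGTG was found in SNHG7 alone, against 7.25% of all promoters. The letters CTTTGAT and CTTTGAA (bound by TCF factors) and CCGGAAG (ETS factors) were found in 0 of the 7, against 2.62%, 4.42% and 10.3% of all promoters.

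The read depth was unequal, with 21.8 to 41.4 M reads in genes in the wild-type libraries and 33.5 to 57.9 M in the mutant libraries. The lowest read number behind a value of a host gene was 533. Both libraries numbered 1 stood apart from their line. The SD of the log2 difference over genes was 0.51 between wild-type replicate 1 and mutant replicate 1, 0.67 and 0.74 between wild-type replicate 1 and the other wild-type libraries, and 0.84 and 0.85 between mutant replicate 1 and the other mutant libraries. It was 0.34 between wild-type replicates 2 and 3 and 0.27 between mutant replicates 2 and 3. CTNNB1 had normalized read counts of 18594, 12532 and 12923 in wild-type replicates 1 to 3 and 18704, 17838 and 18582 in the mutant replicates, and counts per gene cannot show the deletion. Of 7 epithelial markers KRT8 had 18767 to 27636 normalized counts, EPCAM 3266 to 9690 and VIL1 12.7 to 39.97. CDH1 and EPCAM were called lower in the mutant line (log2 fold changes of -1.37 and -0.82, adjusted p of 0.0335 and 0.0462 in limma). CDX2 and KRT18 had higher mutant means and were not called (log2 fold changes of 1.06 and 0.49, adjusted p of 0.0681 and 0.147 in limma). The summed level of the 7 epithelial markers ran from 57958 to 60904 in the wild-type and from 45258 to 50322 in the mutant libraries. Among markers of other cell types, the blood markers PTPRC and CD3E, the endothelial markers PECAM1 and CDH5 and the fibroblast markers COL1A2 and LUM stayed under 10 in every library, and DCN of fibroblasts reached 15.2. COL1A1 and PDGFRB of fibroblasts had 1735 to 4371 and 188 to 246 normalized counts, and VWF of endothelium had 46.5 to 139 and was called lower in the mutant line. The part of these in the results below was not tested. In bulk RNA, fewer cells of a type and less RNA per cell cannot be told apart.

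The question put to the host genes was whether their RNA differs between cells with wild-type and with mutant β-catenin. GAS5 and SNHG1 were lower in the mutant line, by 2.50-fold and 1.74-fold. SNHG3 and SNHG8 had lower mutant means that missed the threshold, SNHG5, SNHG6 and SNHG7 differed by less, and SNHG12 had a higher mutant mean that did not pass the test. In all, 2 of 8 host genes were called lower and 0 higher in limma, where 10.0% of all 14539 genes tested were called lower and 17.3% higher (27.3% in either direction). At an unadjusted p under 0.05 the numbers were 4 lower and 0 higher in limma, and 6 and 0 in edgeR, where 17.8% of all genes were lower in limma and 23.7% in edgeR. A gene was called at a Benjamini-Hochberg adjusted p under 0.05 in limma on log2 values with a pseudocount of 1, and log2 fold changes are mutant minus wild type on that scale. Values are normalized read counts, which are not divided by gene length, so levels are compared between libraries and not between genes.

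**Figure D1:**
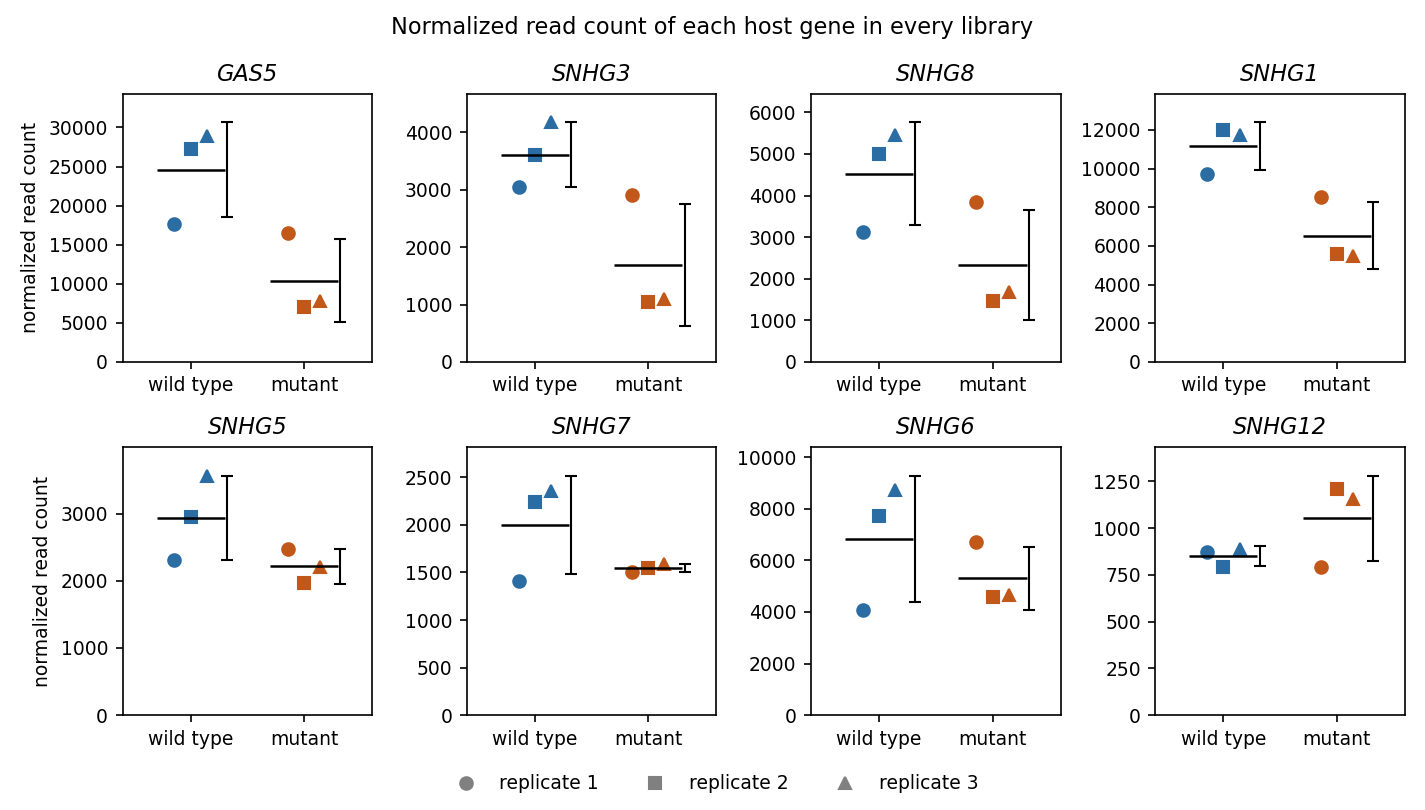
Normalized read count (y axis, from 0) of each host gene in the 3 wild-type and 3 mutant libraries. Points are libraries, with the shape giving the replicate number, horizontal lines are means and bars are 1 SD; in 7 panels mutant replicates 2 and 3 lie below wild-type replicates 2 and 3, and in the SNHG12 panel they lie above.

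GAS5 was named as a growth arrest specific transcript and carries 10 snoRNAs, and its spliced RNA is known as a decoy that binds the glucocorticoid receptor. It lies at chr1:173827697-173838020 on the minus strand (hg19, positions of GENCODE 44 lifted to GRCh37). It had 17699, 27262 and 28893 normalized counts in wild-type replicates 1 to 3 and 16493, 7002 and 7738 in mutant replicates 1 to 3. The lines did not overlap, but mutant replicate 1 came close to wild-type replicate 1 whereas the other mutant libraries were far below every wild-type library. The mean was 24618 ± 6048 (SD, n = 3) in the wild-type and 10411 ± 5280 (SD, n = 3) in the mutant line. The log2 fold change was -1.32 ± 0.35 (SE), with an adjusted p of 0.0426 in limma.

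SNHG1, which hosts SNORD22 and 7 further box C/D snoRNAs, lies at chr11:62619450-62623425 on the minus strand. It had 9723, 12010 and 11727 normalized counts in wild-type replicates 1 to 3, and 8535, 5583 and 5458 in the mutant replicates. Again no mutant library reached a wild-type library, and the nearest values belonged to the libraries numbered 1. Its log2 fold change was -0.80 ± 0.21 (SE), with an adjusted p of 0.0418 in limma.

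SNHG3, the host of the H/ACA snoRNAs of the U17 family, lies at chr1:28832492-28837404 on the plus strand, inside the annotated span of RCC1 on the same strand. Its normalized counts were 3048, 3604 and 4178 in wild-type replicates 1 to 3 and 2910, 1047 and 1091 in the mutant replicates. The lines did not overlap, although the margin between wild-type replicate 1 and mutant replicate 1 was small. The log2 fold change of -1.26 ± 0.39 (SE) had an adjusted p of 0.0502 in limma and was not called. GAS5, SNHG1 and SNHG3 were the host genes without overlap between the lines, 3 of 8, where 19.1% of all genes tested did not overlap and were lower in the mutant line.

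SNHG8, the host of SNORA24, lies at chr4:119199858-119206471 on the plus strand, antisense to PRSS12. Its normalized counts were 3119, 5004 and 5451 in wild-type replicates 1 to 3 and 3849, 1475 and 1676 in the mutant replicates. The lines overlapped through the libraries numbered 1 alone, since mutant replicate 1 lay above wild-type replicate 1. The log2 fold change was -1.05 (95% interval -1.97 to -0.14), with an adjusted p of 0.0727 in limma.

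SNHG5, the host of the U50 snoRNAs SNORD50A and SNORD50B, lies at chr6:86360209-86388650 on the minus strand. It had 2308, 2946 and 3562 normalized counts in wild-type replicates 1 to 3 and 2474, 1962 and 2208 in the mutant replicates. The overlap was again between the libraries numbered 1. Limma gave a log2 fold change of -0.39 (95% interval -0.86 to 0.08) and an adjusted p of 0.150.

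SNHG6 and SNHG7 are the hosts of SNORD87 and of SNORA17 and SNORA43. SNHG6, at chr8:67832796-67838633 on the minus strand, had 4073, 7725 and 8728 normalized counts in wild-type replicates 1 to 3 and 6718, 4567 and 4647 in the mutant replicates. Of all its libraries wild-type replicate 1 was the lowest, so the lines overlapped, and the log2 fold change of -0.32 (95% interval -1.04 to 0.41) had an adjusted p of 0.425 in limma. SNHG7, at chr9:139615818-139622636 on the minus strand, had 1409, 2236 and 2360 in the wild-type and 1508, 1550 and 1591 in the mutant replicates. The mutant libraries of SNHG7 lay close together (SD 41.6, n = 3), with wild-type replicate 1 below and the other wild-type libraries above them, and the log2 fold change was -0.33 (95% interval -0.86 to 0.19, adjusted p = 0.253 in limma).

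SNHG12, the host of SNORD99 and of the H/ACA snoRNAs SNORA16A, SNORA44 and SNORA61, lies at chr1:28905050-28909644 on the minus strand. It had 874, 792 and 888 normalized counts in wild-type replicates 1 to 3 and 792, 1210 and 1159 in the mutant replicates. Mutant replicates 2 and 3 were above every wild-type library and mutant replicate 1 was level with the lowest. The log2 fold change was 0.28 (95% interval -0.22 to 0.79), with an adjusted p of 0.308 in limma, and close to the median of 0.24 over all genes tested. With edgeR on the recovered reads the direction turned when wild-type replicate 1 (-0.0036) or mutant replicate 2 (-0.013) was left out.

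The fold changes moved with the libraries numbered 1. Without wild-type replicate 1, limma called 6 of 8 host genes lower, where 15.3% of all genes were called lower, and SNHG3 missed the threshold at an adjusted p of 0.0560. Without mutant replicate 1, GAS5, SNHG1, SNHG3 and SNHG8 were called lower, where 21.3% of all genes were. SNHG12 was called higher in this fit, as were 5187 of 14570 genes, but not in edgeR (log2 fold change 0.18, adjusted p = 0.304). Without both libraries numbered 1, all host genes but SNHG12 were called lower, where 29.1% of all genes were. SNHG12 was called higher with an adjusted p of 0.00115 in limma, as were 7736 of 14529 genes. The median of all genes tested was 0.39 in this fit. In edgeR without both libraries SNHG12 was at 0.14 and not called (adjusted p = 0.146). In limma without both libraries the log2 fold change was -1.93 for GAS5, -1.86 for SNHG3, -1.73 for SNHG8, -1.10 for SNHG1, -0.83 for SNHG6, -0.64 for SNHG5, -0.55 for SNHG7 and 0.50 for SNHG12. Without any single library among replicates 2 and 3 of either line, 0 host genes were called in limma and 0 in edgeR. Of all genes, 0 to 23 were called in limma and 0 to 30 in edgeR in these fits. GAS5 then had adjusted p-values of up to 0.161 in limma. At an unadjusted p under 0.05, each of these fits had 3 host genes lower in limma, where 10.3% to 11.0% of all genes were lower, and 2 or 3 in edgeR, where 13.5% to 13.9% were. The 7 negative fold changes stayed negative in all 21 alternatives tried.

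**Figure D2:**
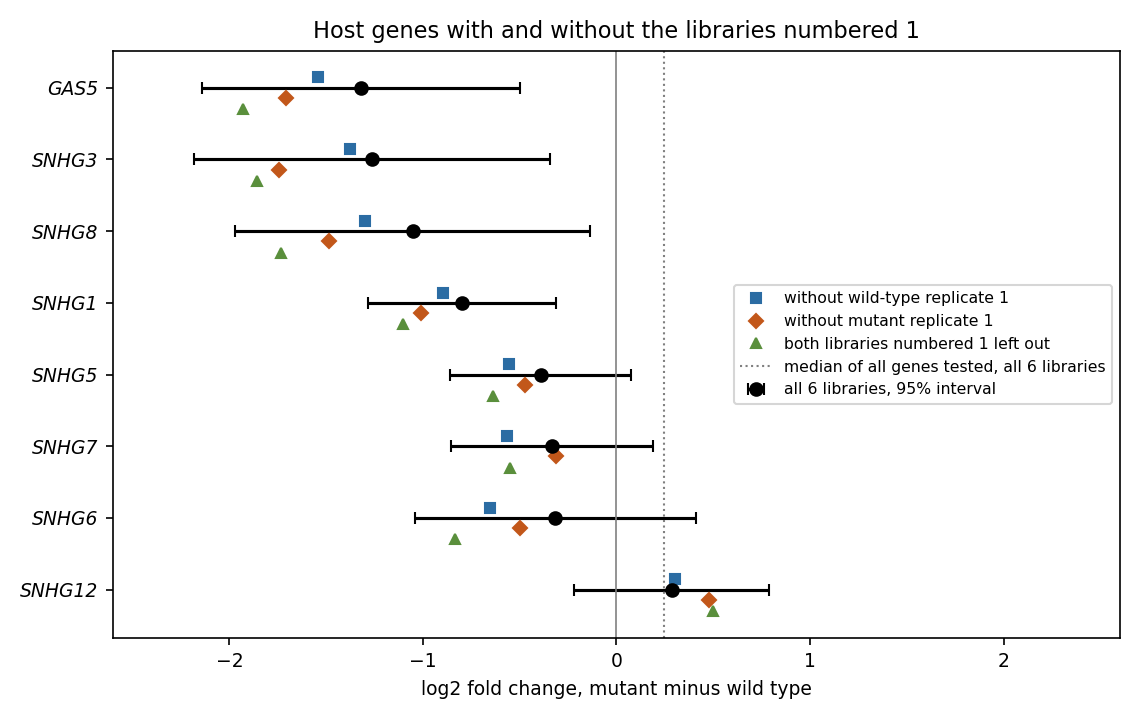
Log2 fold change (x axis, mutant minus wild type) of each host gene in limma. Black points and bars are all 6 libraries with 95% intervals, coloured marks leave out the libraries named, and the dotted line is the median of all genes tested (0.24); for GAS5 the value moved from -1.32 to -1.93 when both libraries numbered 1 were left out.

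The median of all genes tested was 0.24 on the log2 scale with the deposited size factors, 0.05 after TMM rescaling and 0.01 in edgeR. The share of the called genes that were higher in the mutant line was 63.3% with the deposited size factors, 55.6% after TMM rescaling and 52.3% in edgeR. The median of the 8 host genes was -0.60, or -0.84 relative to all genes. Relative to all genes, GAS5 was at -1.57, SNHG3 at -1.51, SNHG8 at -1.30, SNHG1 at -1.04, SNHG5 at -0.64, SNHG7 at -0.58, SNHG6 at -0.56 and SNHG12 at 0.04. edgeR called GAS5 (adjusted p = 0.0487) and SNHG1 (0.0443), where 11.2% of all genes were called lower. With TMM rescaling SNHG3 was called as well (adjusted p = 0.0454 in limma, 13.2% of all genes called lower), and DESeq2 added SNHG3 and SNHG8 (20.6% of all genes called lower).

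Together the host genes took 0.117%, 0.172% and 0.181% of the reads of wild-type replicates 1 to 3 and 0.118%, 0.0658% and 0.0685% of those of the mutant replicates. Mutant replicate 1 lay at the level of wild-type replicate 1, and the other mutant libraries were below every wild-type library. GAS5 gave 41.9%, 44.3% and 43.9% of the host gene reads in the wild-type and 38.1%, 28.7% and 30.3% in the mutant replicates, without overlap. These shares depend on gene length. In exact permutation tests (two-sided) of 5 such shares and ratios the p was 0.10 for the share of GAS5, the smallest that 3 against 3 libraries allow, and 0.20 for the summed share, with Benjamini-Hochberg adjusted values of 0.333 for both.

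The snoRNAs inside the host genes were read from the same table. Reads of a snoRNA and of the unspliced RNA of its host cannot be told apart, and fragments as short as a snoRNA are captured poorly by a library of this kind. As examples, SNORD78 of GAS5 (called lower) and SNORD99 of SNHG12 (not called) are printed from the GRCh37 genome, with the core letters of box C (near the 5′ end) and box D (near the 3′ end), which fold together and bind the snoRNP proteins, in capitals.
SNORD78: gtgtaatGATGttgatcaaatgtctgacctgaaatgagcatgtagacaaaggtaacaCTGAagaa
SNORD99: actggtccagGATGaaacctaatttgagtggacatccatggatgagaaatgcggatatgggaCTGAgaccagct
SNORD78 spans chr1:173834760-173834824 and SNORD99 spans chr1:28905261-28905334, both on the minus strand like their hosts. By their RefSeq positions, 30 listed snoRNAs lie inside the 8 host genes. Of these, 26 were found in the table and 25 had a mean of at least 10, and the others (SNORA73A, SNORA73B, SNORA17, SNORA43 and, for its low values, SNORD50A) were not tested. In limma 7 of the 25 were called lower and 0 higher, where 10.0% of all genes were called lower, and 14 were lower and 0 higher at an unadjusted p under 0.05, where 17.8% of all genes were lower. Their median log2 fold change was -1.19, and 21 of 25 were negative, where 5647 of all 14539 genes tested were. Of the 25, 8 lie in SNHG1 and 10 in GAS5, so they are not separate observations. In edgeR 4 of the 25 were called lower (SNORD22, SNORD30, SNORD74 and SNORD78), where 11.2% of all genes were.

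Within SNHG1 all 8 snoRNAs had negative log2 fold changes and 5 were called lower, SNORD22, SNORD25, SNORD26, SNORD28 and SNORD30. Of all 14539 genes tested, 5647 had negative log2 fold changes and 10.0% were called lower. SNORD26 had 238, 268 and 240 normalized counts in wild-type replicates 1 to 3 and 173, 32.1 and 30.8 in the mutant replicates, and its log2 fold change was -2.13 ± 0.64 (SE, adjusted p = 0.0480 in limma). SNORD25, the snoRNA of SNHG1 with the highest value, had 806, 927 and 954 against 691, 220 and 247 (log2 fold change -1.41 ± 0.43, adjusted p = 0.0485 in limma). SNORD22 had 325, 390 and 380 against 232, 110 and 102. In each of these 3 the lines did not overlap and mutant replicate 1 stood between the wild-type libraries and the other mutant libraries. SNORD28 and SNORD30 did not overlap either, where 19.1% of all genes tested did not overlap and were lower in the mutant line. In SNORD27, SNORD29 and SNORD31 the lines overlapped. Their mutant replicate 1 (104, 137 and 333) lay above wild-type replicate 1 (93.3, 120 and 298).

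Within GAS5 the snoRNAs were less alike. SNORD74 had 265, 477 and 525 normalized counts in wild-type replicates 1 to 3 and 195, 44.3 and 40.3 in the mutant replicates, a log2 fold change of -2.50 ± 0.62 (SE, adjusted p = 0.0413 in limma). SNORD78 had 228, 333 and 356 against 175, 77.5 and 96.6 (log2 fold change -1.45 ± 0.37, adjusted p = 0.0417 in limma). SNORD80, with the highest value of the 10, had 1366, 1522 and 1261 against 1162, 446 and 429, without overlap but with an adjusted p of 0.0545 in limma. SNORD47 and SNORD79 had a low value in wild-type replicate 3 (74.9 and 36.6) beside 349 and 339, and 147 and 156, in the other wild-type libraries, and SNORD81 was at 0.61 on the log2 scale (adjusted p = 0.359 in limma). SNORD50A and SNORD87, in SNHG5 and SNHG6, were also lowest in wild-type replicate 3. Without wild-type replicate 3, 0 of the 25 snoRNAs and 0 of all genes were called in limma or in edgeR. At an unadjusted p under 0.05, 8 and 6 snoRNAs were lower, where 10.8% and 13.9% of all genes were. When replicate 2 of either line or mutant replicate 3 was left out, again 0 snoRNAs were called. Of all genes, 0 to 23 were called in limma and 0 to 30 in edgeR. At an unadjusted p under 0.05 limma had 7 snoRNAs lower and edgeR 4, where 10.3% to 11.0% and 13.5% to 13.9% of all genes were.

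**Figure D3:**
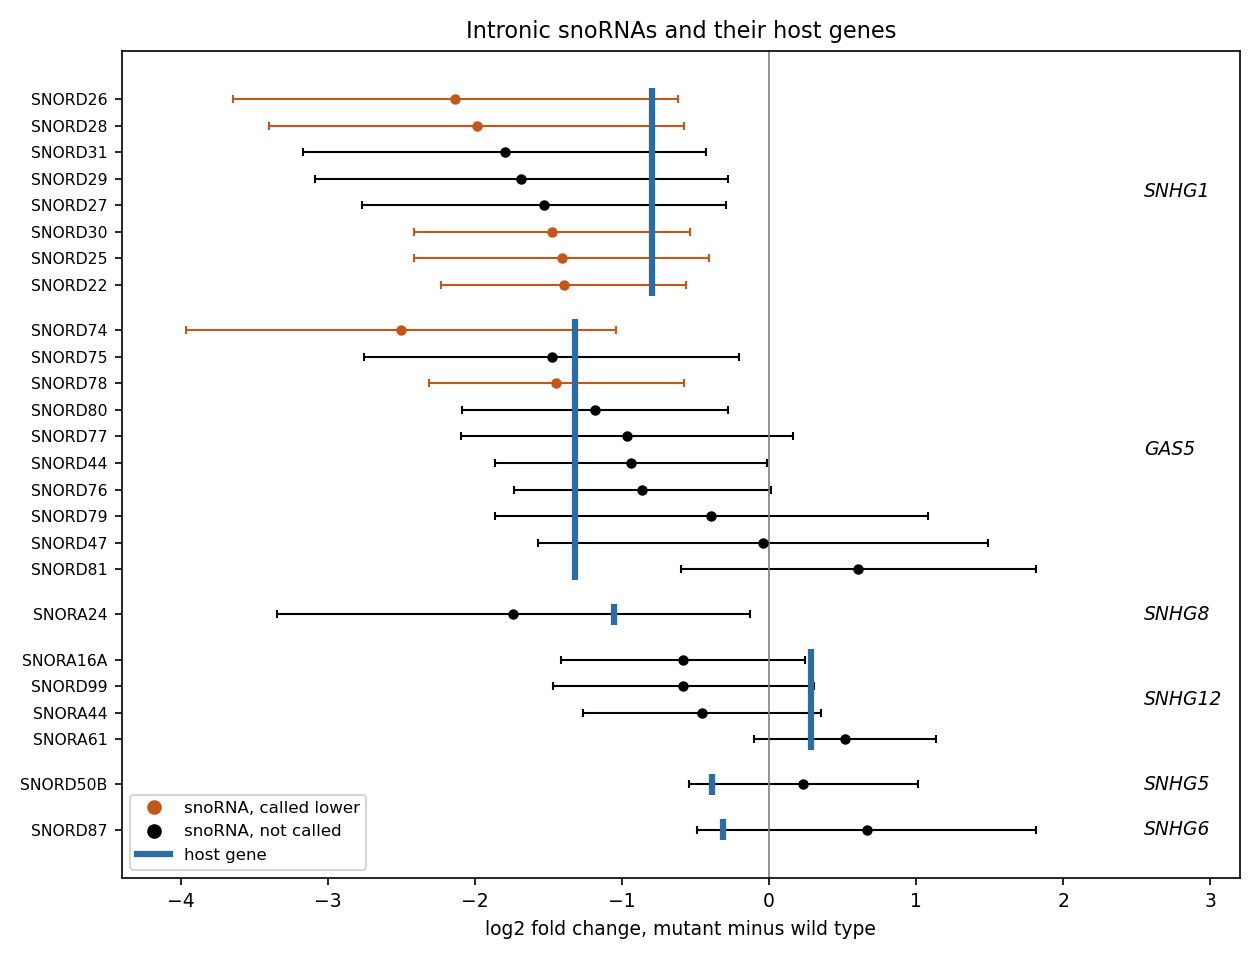
Log2 fold change (x axis, mutant minus wild type, limma) of the 25 tested snoRNAs with 95% intervals, grouped by host gene. Orange points were called lower, black points were not called, and the blue bar is the value of the host; all 8 snoRNAs of SNHG1 lie to the left of their host and those of GAS5 lie on both sides of it.

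SNORA24, the snoRNA of SNHG8, had 33.1, 94.2 and 79.9 normalized counts in wild-type replicates 1 to 3 and 50.0, 9.96 and 11.7 in the mutant replicates (adjusted p = 0.0832 in limma). Its lines overlapped through the libraries numbered 1, as those of SNHG8 did. The 4 snoRNAs of SNHG12 summed to 334 ± 18.5 (SD, n = 3) in the wild-type and 336 ± 15.4 (SD, n = 3) in the mutant line. Among them SNORA61 had 169, 139 and 120 against 171, 230 and 210, without overlap and in the direction of SNHG12 (log2 fold change 0.51, adjusted p = 0.152 in limma), while SNORD99, SNORA16A and SNORA44 had values of -0.58, -0.58 and -0.46.

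The snoRNAs of SNHG1 summed to 23.0%, 26.9% and 26.6% of the value of SNHG1 in wild-type replicates 1 to 3 and to 23.5%, 11.0% and 11.3% in the mutant replicates. For GAS5 the sums were 17.4%, 14.5% and 10.1% of the host against 16.9%, 16.4% and 14.1%. For SNHG12 they were 38.1%, 44.6% and 35.6% against 43.7%, 28.4% and 27.5%. In mutant replicates 2 and 3 the ratio was thus low for SNHG1 and SNHG12 and within the wild-type range for GAS5, and mutant replicate 1 was within the wild-type range for all 3 hosts. Exact permutation tests (two-sided, n = 3 per line) gave p-values of 0.20 for SNHG1, 0.70 for GAS5 and 0.30 for SNHG12, with adjusted values from 0.333 to 0.70, in a design that cannot go below 0.10.

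**Figure D4:**
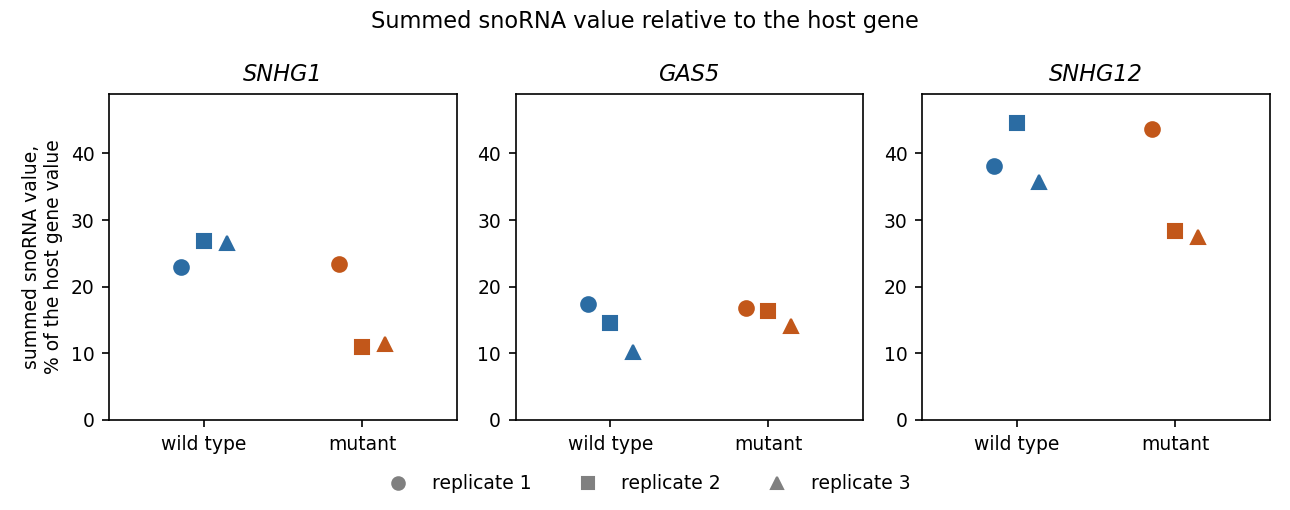
Summed value of the snoRNAs of a host as a percentage of the value of the host (y axis, from 0) in each library for SNHG1, GAS5 and SNHG12. Points are libraries with the shape giving the replicate number; mutant replicates 2 and 3 of SNHG1 are at 11.0% and 11.3%, and mutant replicate 1 is at 23.5% among the wild-type libraries.

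Without both libraries numbered 1, limma called 19 of the 25 snoRNAs lower, where 29.1% of all genes were called lower. Among them were all 8 of SNHG1, 7 of the 10 of GAS5 and SNORA24. SNORA61 was called higher, as were 7736 of 14529 genes. Without mutant replicate 1 the number was 17, where 21.3% of all genes were called lower. It was 8 without wild-type replicate 1 (15.3% of all genes).

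Genes next to the host genes varied in direction. SLC3A2, which encodes the heavy chain of amino acid transporters and is a neighbour of SNHG1, was lower in the mutant line, with 8879, 10103 and 10555 normalized counts in wild-type replicates 1 to 3 and 6295, 6126 and 6756 in the mutant replicates (log2 fold change -0.62 ± 0.13, adjusted p = 0.0404 in limma). WDR74, a ribosome assembly factor beside SNHG1, was at 0.16 on the log2 scale (adjusted p = 0.530 in limma), which turned to -0.070 in edgeR. Beside SNHG5, SYNCRIP and SNX14, the genes of an RNA-binding protein and of a sorting nexin, were higher in the mutant line by 1.15 and 1.36 on the log2 scale (adjusted p of 0.0424 and 0.0433 in limma).

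RCC1, the exchange factor of the GTPase Ran, shares its position with SNHG3, and a read from the shared stretch may have been counted for either or for neither. It had 3881, 3114 and 3511 normalized counts in wild-type replicates 1 to 3 and 3626, 7193 and 7375 in the mutant replicates. Mutant replicates 2 and 3 were thus high for RCC1 and low for SNHG3, and mutant replicate 1 was within the wild-type range of RCC1 (log2 fold change 0.73, adjusted p = 0.0814 in limma). ZBTB37, a zinc finger gene antisense to GAS5, had 184, 117 and 150 against 107, 112 and 90.2, without overlap and with an adjusted p of 0.171 in limma. PRSS12, METTL14 and TAF12, beside SNHG8 and SNHG12, had log2 fold changes from 0.33 to 0.48 with adjusted p-values from 0.0738 to 0.193 in limma, and that of PRSS12 turned to -0.074 in edgeR without mutant replicate 1. Whether the counting used strand is not given in the sources used here, so reads of SNHG6, SNHG7, SNHG8, SNHG12 and GAS5 and of the genes antisense to them may have been mixed. TRNAU1AP, antisense to SNHG12, and LCN10, beside SNHG7, were at 0.14 and 0.053 and turned to -0.078 and -0.21 in edgeR, and TCF24 and PPP1R42, beside SNHG6, had means under 10 and were not tested. Of 11 neighbours tested, 1 was called lower and 2 higher, where 10.0% of all genes were called lower and 17.3% higher.

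Other noncoding snoRNA hosts varied, with 1 called lower and 0 higher, where 10.0% of all genes were called lower and 17.3% higher. Of 7 tested, SNHG15 was called lower, with 2292, 3817 and 3617 normalized counts in wild-type replicates 1 to 3 and 1829, 1379 and 1485 in the mutant replicates (log2 fold change -1.03 ± 0.24, adjusted p = 0.0404 in limma). EPB41L4A-AS1 was at -1.64 (adjusted p = 0.0521), and SNHG4 at 1.13 (adjusted p = 0.0553) with 187, 89.9 and 98.3 against 189, 305 and 305. DANCR had 1040, 956 and 1066 against 1187, 1150 and 1191, without overlap (log2 fold change 0.21, adjusted p = 0.308). The median of these 7 was -0.09, against -0.60 for the 8 host genes and 0.24 for all genes.

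Protein-coding hosts of snoRNAs, such as ribosomal protein genes, were called lower for 9 and higher for 3 of 37, with a median of -0.52. Of all genes, 10.0% were called lower and 17.3% higher. EIF4G2, the gene of an initiation factor for cap-independent translation, had 26355, 15368 and 14968 normalized counts in wild-type replicates 1 to 3 and 29085, 44195 and 43016 in the mutant replicates (log2 fold change 1.06, adjusted p = 0.0414 in limma). RPL13A had 17113, 21562 and 22933 against 15413, 8717 and 9122 (log2 fold change -0.93, adjusted p = 0.0425). Both showed the libraries numbered 1 between the others, as GAS5 did.

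Ribosomal protein genes, which carry TOP motifs, had a median log2 fold change of -0.61 beside -0.60 for the host genes. Of 77 tested, 21 were called lower, where 10.0% of all genes were. All but RPS10 were negative, where 5647 of all 14539 genes tested were. RPS19, a protein of the small subunit, had 37843, 57734 and 63356 normalized counts in wild-type replicates 1 to 3 and 31909, 23623 and 25913 in the mutant replicates (log2 fold change -0.94, adjusted p = 0.0410 in limma). Translation factors with a TOP motif had a median of -0.42, with 2 of 14 called lower, where 10.0% of all genes were. The 2 were EEF2 (elongation factor 2) at -0.92 and EIF3H (an initiation factor subunit) at -0.65. Among the host genes themselves, the 4 with a pyrimidine run at the printed start (SNHG5, SNHG7, SNHG8 and SNHG12) include none of those called. Of all genes, 10.0% were called lower and 17.3% higher. The 3 without a run at the printed start (SNHG1, SNHG3 and GAS5) are those whose lines did not overlap. Of all genes tested, 19.1% did not overlap and were lower in the mutant line. Groups of 4 and 3 genes are too small to tell these numbers from those shares. Only the printed start of each gene was read. GAS5 has several annotated starts, and SNHG1 and SNHG5 have 80 and 89 annotated transcripts, so the place of these genes in the split is not settled. No test was run on this split.

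Regulators of TOP genes and of the kinase mTOR had a median of 0.93, with 5 of 10 called higher, where 17.3% of all genes were. LARP4, an RNA-binding protein of the La family, had 2402, 1455 and 973 normalized counts in wild-type replicates 1 to 3 and 3135, 6094 and 5681 in the mutant replicates (log2 fold change 1.66, adjusted p = 0.0404 in limma). RPTOR, the gene of the mTORC1 subunit raptor, was at 1.41 (adjusted p = 0.0405) and EIF4EBP2, a translation repressor under mTOR, at 1.48 (adjusted p = 0.0426). Of 18 snoRNP proteins and assembly factors, which bind the snoRNAs after release from the host, 4 were called higher, where 17.3% of all genes were. The median of the 18 was 0.50, beside 0.24 for all genes tested. NAF1, an assembly factor of H/ACA particles, had 606, 403 and 356 against 672, 1722 and 1592 (log2 fold change 1.46, adjusted p = 0.0431), and DKC1, the pseudouridine synthase of these particles and itself a snoRNA host, was at 0.73 (adjusted p = 0.0494).

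Factors of nonsense-mediated decay, the pathway that destroys spliced host RNA, moved in both directions, with 2 of 21 called higher and 2 lower. Of all genes, 17.3% were called higher and 10.0% lower. SMG8 and MAGOHB were higher by 1.67 and 1.87 on the log2 scale (adjusted p of 0.0404 and 0.0412 in limma). SMG5 had 5978, 7199 and 6671 normalized counts in wild-type replicates 1 to 3 and 4157, 4056 and 3812 in the mutant replicates (log2 fold change -0.72, adjusted p = 0.0372), and DHX34 was at -0.68 (adjusted p = 0.0449). For SMG5 mutant replicate 1 was level with the other mutant libraries. Of 6 mRNAs known to be sensitive to this decay, UPP1, ATF4, GADD45A and ATF3 were called lower, with log2 fold changes from -2.24 to -1.14, and TBL2 higher, at 0.88. These mRNAs also respond to stress, and their direction is given as a description.

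Of the 5 growth arrest specific genes tested other than GAS5, 0 were called in limma and 0 in edgeR, and GAS6 alone had an unadjusted p under 0.05 in limma. GAS6, a ligand of the TAM receptors, had 2027, 1968 and 2148 normalized counts in wild-type replicates 1 to 3 and 2756, 2520 and 2547 in the mutant replicates (log2 fold change 0.35, adjusted p = 0.0845 in limma). Among the glucocorticoid receptor and its targets, listed since GAS5 binds this receptor, 3 of 8 were called lower and 1 higher in limma. Of all genes, 10.0% were called lower and 17.3% higher. edgeR called 1 lower and 1 higher, beside 1625 and 1783 of all 14539 genes. Not called in limma were NR3C1 (the receptor) and FKBP5, at 0.57 and 1.42, and SGK1 and KLF9, at -0.41 and -0.96. PER1, a clock gene, was at -1.87 (adjusted p = 0.0413 in limma), DUSP1, a MAP kinase phosphatase, at -1.76 (0.0446) and BIRC3, an inhibitor of apoptosis, at -1.60 (0.0434), while TSC22D3, the leucine zipper protein induced by glucocorticoids, was at 1.44 (0.0443). Of 5 abundant nuclear noncoding RNAs, KCNQ1OT1 alone was called lower, at -2.07 (adjusted p = 0.0429 in limma), where 10.0% of all genes were.

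**Figure D5:**
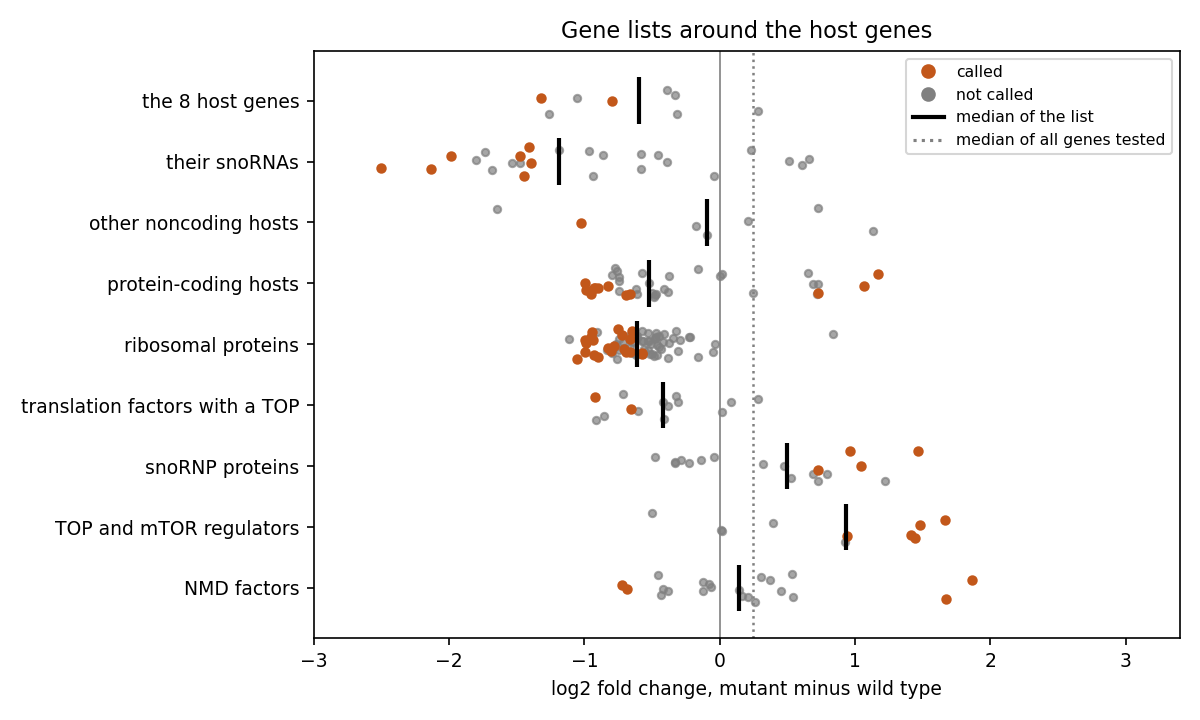
Log2 fold change (x axis, mutant minus wild type, limma) of the genes of 9 lists. Orange points were called and grey points were not, black bars are the median of each list and the dotted line is the median of all genes tested (0.24); the medians of the host genes (-0.60) and of the ribosomal protein genes (-0.61) lie close together and those of snoRNP proteins (0.50) and TOP and mTOR regulators (0.93) lie above 0.

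The genes whose profile over the 6 libraries was most like that of each host gene were sought among 11788 genes with a mean of at least 100, by the mean absolute difference of log2 values centred on their own mean. For GAS5 these were NYAP1 (0.018) and MAFK, a small Maf transcription factor (0.028). MAFK had 2554, 3788 and 4185 normalized counts in wild-type replicates 1 to 3 and 2273, 971 and 1066 in the mutant replicates. For SNHG1 they were BAZ2A, a subunit of the nucleolar remodelling complex, and DOM3Z (0.030 for both), and for SNHG3 CD27-AS1 (0.055) and CUL7, a cullin (0.066). For SNHG5 the nearest was RPL24, a ribosomal protein gene (0.029), followed by NDUFB7, a subunit of complex I (0.038), and for SNHG7 SART1, a splicing factor, and GATAD2A, a NuRD subunit (0.017 and 0.024). SNHG12 was nearest to NAA40 and C10orf76 (0.017 and 0.021) and SNHG6 to DES and EFNA1 (0.081 and 0.087), the largest differences among the 8 host genes. Among the host genes, SNHG3 and SNHG8 were nearest to each other (0.13), GAS5 was nearest to SNHG3 (0.13), and SNHG12 was the farthest from its nearest (0.39).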

How the data were processed

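RNA of 3 replicates of each of 2 HCT116 lines was sequenced by the authors after removal of ribosomal RNA, although the labels' molecule field says polyA RNA. Mapping was to hg19 (TopHat2 2.1.0). The reads were counted by gene with HTSeq and the lines compared with DESeq. CASAVA 1.8.2 is named in the submitters' processing notes too. The gene annotation and the strand setting are not given in the sources used here. The deposited values are a signal, gene counts after division by a size factor of the sample, as the authors computed it. The authors' own fold changes and adjusted p-values stand in the same table and were not used. The smallest step of a sample was taken as 1 read, which made 100% of values whole within 0.001.

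Genes with a mean of at least 10 were tested with limma 3.58.1 (R 4.3.3, eBayes with trend, two-sided) on log2 values with a pseudocount of 1, with Benjamini-Hochberg adjustment over all 14539 genes, and calls at 0.05. Alternatives were edgeR 4.0.16 and DESeq2 1.42.0 on the recovered reads, TMM rescaling, no filter, pseudocounts of 0.5 and 5, a replicate block, and leaving out libraries. Figures used Python 3.11.15 and matplotlib 3.10.9. Named were all host genes, their neighbours, up to 4 called genes of smallest p per list and the 2 nearest profiles of each host gene (those of SNHG8 are not reported here), and further genes were named after their values were seen. The members and lists were chosen with earlier results of these data known. The spread behind each p-value is that of these samples alone and may be technical. The script was tested on simulated data. Sequences are from RefSeq (GRCh38.p14) and the GRCh37 genome.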

Additional observations from a re-analysis of the deposited data

How the results depend on the processing

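With limma on all libraries 2 host genes, 7 of their snoRNAs and 3976 of all genes were called. DESeq2 called 4 host genes, 13 snoRNAs and 6153 genes, and edgeR 2, 4 and 3408. At an unadjusted p under 0.05 the numbers were 4, 14 and 7288. With both libraries numbered 1 left out, limma called 8 host genes, 19 snoRNAs lower and 11962 genes, and edgeR called 7, 20 and 11948. Leaving out single libraries in limma or edgeR gave 0 to 6 host genes, 0 to 18 snoRNAs and 0 to 8285 genes, with the high ends without replicate 1 of either line. TMM rescaling, no filter and pseudocounts of 0.5 and 5 gave 2 or 3 host genes. The snoRNA alternatives and edgeR without both libraries numbered 1 were chosen after seeing the data.

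The replicate block left 0 host genes, 0 snoRNAs and 0 genes called in limma. Same-numbered libraries deviated from the means of their lines in opposite directions (r of -0.53, -0.43 and -0.31). So did wild-type replicate 3 with mutant replicate 2 (r of -0.40) and wild-type replicate 2 with mutant replicate 3 (-0.42). The other differently numbered libraries had r from 0.40 to 0.52. These r cannot settle whether the numbers pair the libraries.

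Directions turned for SNHG12 (single libraries left out, -0.013 to 0.48) and for 4 neighbours. WDR74 was at -0.070 in edgeR, -0.079 in DESeq2, -0.038 with TMM and -0.019 in edgeR without both libraries numbered 1 (single libraries left out, -0.17 to 0.34). TRNAU1AP was at -0.078, -0.086 and -0.051 in edgeR, DESeq2 and with TMM (-0.17 to 0.35). LCN10 was at -0.21, -0.22, -0.12 and, in edgeR without both libraries numbered 1, -0.041 (-0.35 to 0.36), and PRSS12 at -0.0057 in the latter fit (-0.074 to 0.47). The causes were not tested.

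Each host gene had at least 533 reads in every library, and snoRNAs with a mean under 10 normalized counts were too shallow to test. The comparison rests on 3 libraries per line and 1 line per genotype, on size factors that leave the median gene at 0.24, and on libraries numbered 1 that stand apart from their lines.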
